A study of Mus musculus with 65 samples.

Results

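Rod and cone phototransduction genes were followed in bulk RNA of mouse retina while microglia, the resident immune cells of the tissue, were removed and allowed to return, and after a challenge with lipopolysaccharide (LPS), a bacterial endotoxin. The 35 genes were chosen as a named list of photoreceptor genes and found by symbol among the 50686 genes of the count table. They comprised 12 rod genes, 10 cone genes and 13 genes used by both cell types. The comparisons ask how far these genes held their level during microglial depletion and under endotoxin.

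All 65 mice were adult C57BL/6J animals. The CD group ate the control diet (n = 5). The DEP2, DEP5, DEP7, DEP10, DEP14 and DEP21 groups were taken after 2, 5, 7, 10, 14 or 21 days on a diet with PLX5622, an inhibitor of CSF1R, the receptor that microglia need to survive. The REPOP3 to REPOP21 groups were returned to control diet for 3, 5, 7, 10, 14 or 21 days after 14 days of PLX5622, and REPOP60 is labelled as 2 months of return. Groups had 4 mice, except DEP5 with 3 and REPOP7 with 6. LPSCD mice received LPS on the control diet (n = 3). LPSREPOP mice, labelled as PLX5622 with LPS and described by the study as repopulated, also received it (n = 4). The inhibitor was given in the diet and so reached the whole animal.

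In the outer retina, light activates a visual pigment, which switches on the G protein transducin. Transducin releases the inhibition of a cyclic GMP phosphodiesterase, cyclic GMP falls, and cation channels in the outer segment membrane close. Arrestin, a pigment kinase, recoverin and calcium-sensing activators of guanylate cyclase end the response and restore cyclic GMP. Rods and cones build this cascade from separate gene copies for most steps, and the transcription factors CRX, NRL and NR2E3 set which copies are used.

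The promoters of 4 members are shown because these members had the 4 lowest false discovery rates between LPSREPOP and REPOP60, and 2 of them were higher and 2 lower. Each runs 5′ to 3′ on the strand of its gene, from 250 bases before to 50 bases after the RefSeq start on GRCm38.p6. The windows lie at chr9:59950030-59950329 (minus strand, Nr2e3), chr17:47400557-47400856 (minus strand, Guca1a), chrX:100605247-100605546 (plus strand, Arr3) and chr6:136954273-136954572 (plus strand, Pde6h). Capitals mark TAATCC or TAATCT on either strand, letters of the kind that CRX and related homeodomain proteins are known to bind. The reverse complements are GGATTA and AGATTA.

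Nr2e3: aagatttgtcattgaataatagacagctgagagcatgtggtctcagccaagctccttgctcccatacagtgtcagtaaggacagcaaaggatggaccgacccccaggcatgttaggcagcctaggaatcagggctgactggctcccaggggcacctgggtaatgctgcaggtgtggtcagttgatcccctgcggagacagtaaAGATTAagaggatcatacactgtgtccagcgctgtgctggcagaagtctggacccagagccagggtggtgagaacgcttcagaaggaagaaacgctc

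Guca1a: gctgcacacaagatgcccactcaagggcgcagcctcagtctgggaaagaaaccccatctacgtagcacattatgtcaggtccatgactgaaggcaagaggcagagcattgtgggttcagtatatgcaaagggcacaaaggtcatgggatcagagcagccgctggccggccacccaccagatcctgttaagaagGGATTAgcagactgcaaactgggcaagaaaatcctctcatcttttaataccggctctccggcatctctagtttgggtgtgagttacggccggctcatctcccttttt

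Arr3: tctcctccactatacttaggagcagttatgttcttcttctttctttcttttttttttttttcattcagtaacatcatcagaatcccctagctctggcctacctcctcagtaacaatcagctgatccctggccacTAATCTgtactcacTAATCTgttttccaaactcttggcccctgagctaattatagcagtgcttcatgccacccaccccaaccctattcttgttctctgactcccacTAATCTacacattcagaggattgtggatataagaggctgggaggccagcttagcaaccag

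Pde6h: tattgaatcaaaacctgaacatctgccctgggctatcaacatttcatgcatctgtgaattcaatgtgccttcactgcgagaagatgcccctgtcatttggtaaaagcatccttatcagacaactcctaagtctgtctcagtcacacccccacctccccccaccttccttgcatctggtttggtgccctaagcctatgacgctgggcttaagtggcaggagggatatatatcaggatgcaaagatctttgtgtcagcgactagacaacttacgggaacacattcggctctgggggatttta

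Arr3 held TAATCT 3 times and Nr2e3 held it once, on the other strand. Guca1a held TAATCC once, on the other strand, and neither run of letters was in the Pde6h window. Of the 35 members, 25 had a promoter in the RefSeq table, and 15 of these (60%) held at least 1 of the motifs. Over the first listed promoter of 27025 mouse genes the share was 14.6%. The letters were chosen after the data had been seen, and a match is a description of the window, not a site.

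Microglial genes were low during PLX5622 treatment while no photoreceptor member passed the test of depletion. The library totals were 5106429 to 8760443 counts (median 7944665), and the 35 members together took 4.22% to 6.17% of them (median 5.63%). The member with the fewest reads was Cnga3, the cone channel subunit, with 88 to 175 counts per mouse, so no member was near the detection limit. The summed level of 15 microglial markers was 66.3 to 86.2 CPM (counts scaled to a common library size, with TMM factors) in CD and 20.8 to 30.0 CPM in DEP14. In the pooled comparison below, 14 of the 15 were lower at a false discovery rate (FDR) under 0.05. Lens genes, from tissue that can adhere to the retina, summed to 1.40 to 63.6 CPM in DEP14 and 1.45 to 16.2 CPM in CD. Their part in the results was not tested.

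The titles of the samples end in RE (39 mice) or re (26 mice), and the meaning of this suffix is not given in the sources used here. Across 65 mice with the group as a covariate, 23 of the 35 members differed by suffix at FDR under 0.05 (edgeR's quasi-likelihood test), 16 higher and 7 lower in RE mice, beside 45.5% of all 28211 genes tested (21.8% higher and 23.7% lower). Gngt1, the rod transducin gamma subunit, ranged from 575 to 1583 CPM in RE mice (median 1060.3) and from 135 to 392 CPM in re mice (median 329.7). The suffixes did not overlap for Gngt1, and the log2 fold change was 1.59 ± 0.10 (SE; FDR 8.5e-23, edgeR). Its cone counterpart Gngt2 ranged from 44.8 to 91.7 CPM in RE mice (median 61.0) and from 22.4 to 35.8 CPM in re mice (median 28.1), a log2 difference of 1.06 ± 0.07 (SE).

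Other members were less separated. Pdc, which encodes phosducin, a partner of the transducin beta and gamma subunits, was 0.87 ± 0.07 higher (log2, SE), and Rp1, a microtubule protein of the outer segment, 0.58 ± 0.05 higher in RE mice. Arr3, cone arrestin, went the other way with a log2 fold change of -0.30 ± 0.05 (SE, FDR 7.4e-07, edgeR). Rod Gnat1 did not pass, at -0.09 (FDR 0.12, edgeR). Exon length did not order these differences, since Spearman's rho over the 35 genes was 0.10 between union exon length (873 to 12311 bases) and the suffix difference. This is a description across genes, which are not independent. Because the suffix was unevenly spread over the groups, every comparison below carries it as a term where the mice compared allow its estimate.

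**Figure D1:**
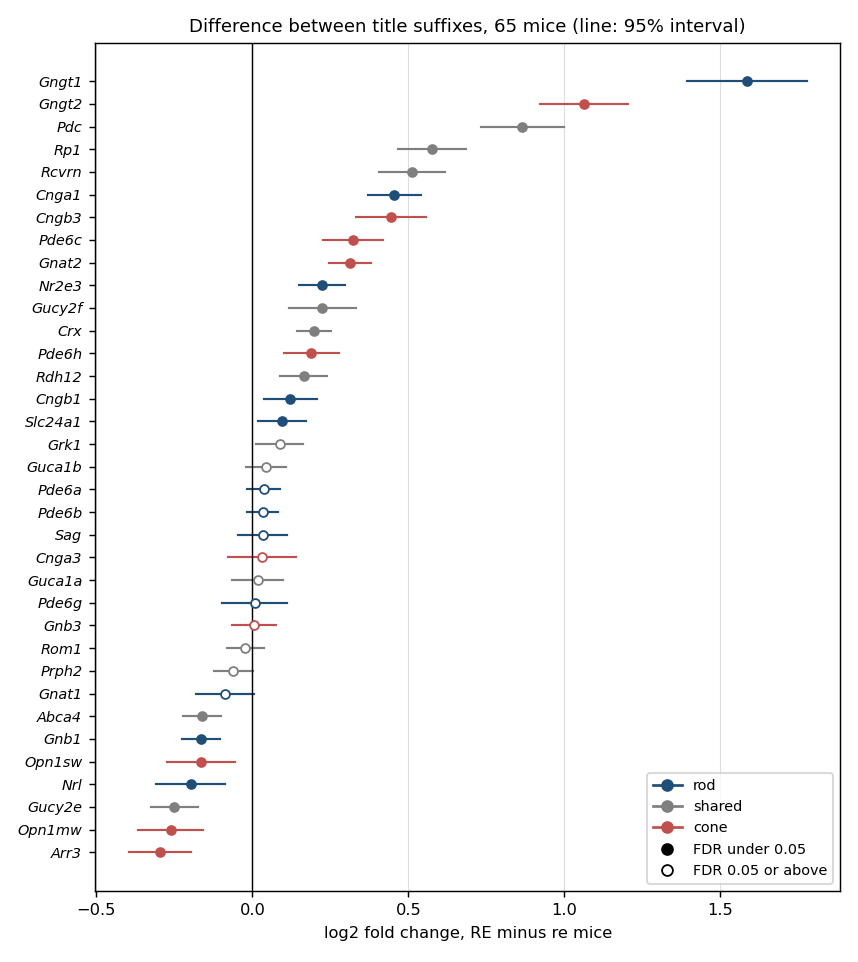
Log2 fold change between RE and re mice for each of the 35 members, from the fit of 65 mice with group as a covariate, with points for the estimate, lines for the 95% interval, and colour for the class. Gngt1 stands at 1.59 and Gngt2 at 1.06, and Arr3 at -0.30 is the lowest.

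Levels across genes were compared per exon length, as FPKM in the 5 CD mice. Gnat1, the rod transducin alpha subunit, was at 6207 ± 446 FPKM (SD, n = 5), the highest of the list. Prph2, which shapes the outer segment disc rim, followed at 1804 ± 106 FPKM (SD, n = 5), and Gnb1, the rod beta subunit that many other cells also use, at 1491 ± 140 FPKM (SD, n = 5). Cone genes ranged from 4.45 ± 0.51 FPKM for Cnga3 to 188 ± 14.3 FPKM for Gnb3 (SD, n = 5). Cnga3 and its partner Cngb3, at 4.76 ± 0.70 FPKM (SD, n = 5), differed by less than their spread.

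The rod gene exceeded its cone counterpart in every one of the 8 pairs. The FPKM ratio in CD was 109 ± 6.77 for Gnat1 over Gnat2 and 17.7 ± 0.73 for the catalytic subunits Pde6a over Pde6c (SD, n = 5). It was 10.9 ± 2.56 for rod arrestin Sag over Arr3 and 5.44 ± 1.07 for Gngt1 over Gngt2 (SD, n = 5). Single mice ranged from 57.1 to 70.2 for the phosphodiesterase inhibitory subunits Pde6g over Pde6h and from 6.70 to 9.67 for Gnb1 over Gnb3. Channel subunit ratios were 56.7 ± 15.8 for Cnga1 over Cnga3 and 51.9 ± 8.14 for Cngb1 over Cngb3 (SD, n = 5). These ratios also moved with the suffix, as for Cngb1 over Cngb3, which was 41.6 ± 5.09 in the 39 RE mice and 57.6 ± 7.78 in the 19 re mice without LPS (SD).

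During PLX5622 treatment, no member passed the test in the pooled comparison of 19 mice from DEP5 to DEP21 with 5 CD mice. The pool includes the early DEP5 and DEP7 groups. The study describes microglial loss as incomplete early in treatment. Not every retina of the pool is thus known to be free of microglia. None of the 35 passed FDR under 0.05 (lowest FDR 0.43, edgeR), where 0.237% of 22776 genes did, and DESeq2 also called 0. At an unadjusted p under 0.05 there were 5 of 35 beside 6.47% of all genes. The median log2 fold change was 0.01 for rod genes, 0.03 for shared genes and 0.08 for cone genes, against -0.00017 over all genes tested. All 35 95% intervals lay within 0.5 of no change on the log2 scale, and 27 lay within 0.25. In bulk RNA, fewer photoreceptors and less RNA per photoreceptor cannot be told apart, here or below.

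The members nearest to passing pointed both ways. Arr3 in RE mice was at 199 ± 27.3 CPM in CD, 216 ± 8.94 CPM in DEP5, 239.8 ± 5.60 CPM in DEP14 and 247 ± 10.2 CPM in DEP21 (SD, n = 3). DEP7 and DEP10 are left out of this list, so it does not show whether the level rose steadily with days. A trend over days was not tested. The pooled log2 fold change of Arr3 was 0.19 ± 0.06 (SE, FDR 0.43, edgeR). Rp1 followed at 0.21 ± 0.07 (SE) and Nr2e3, the nuclear receptor that represses cone genes in rods, at -0.13 ± 0.05 (SE). Gnat1 was at -0.06 with an interval from -0.17 to 0.06, and the phosphodiesterase subunits Pde6a and Pde6b at 0.02 and 0.04. Only CD mice were left out in turn here, and none of those 5 fits called a member.

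**Figure D2:**
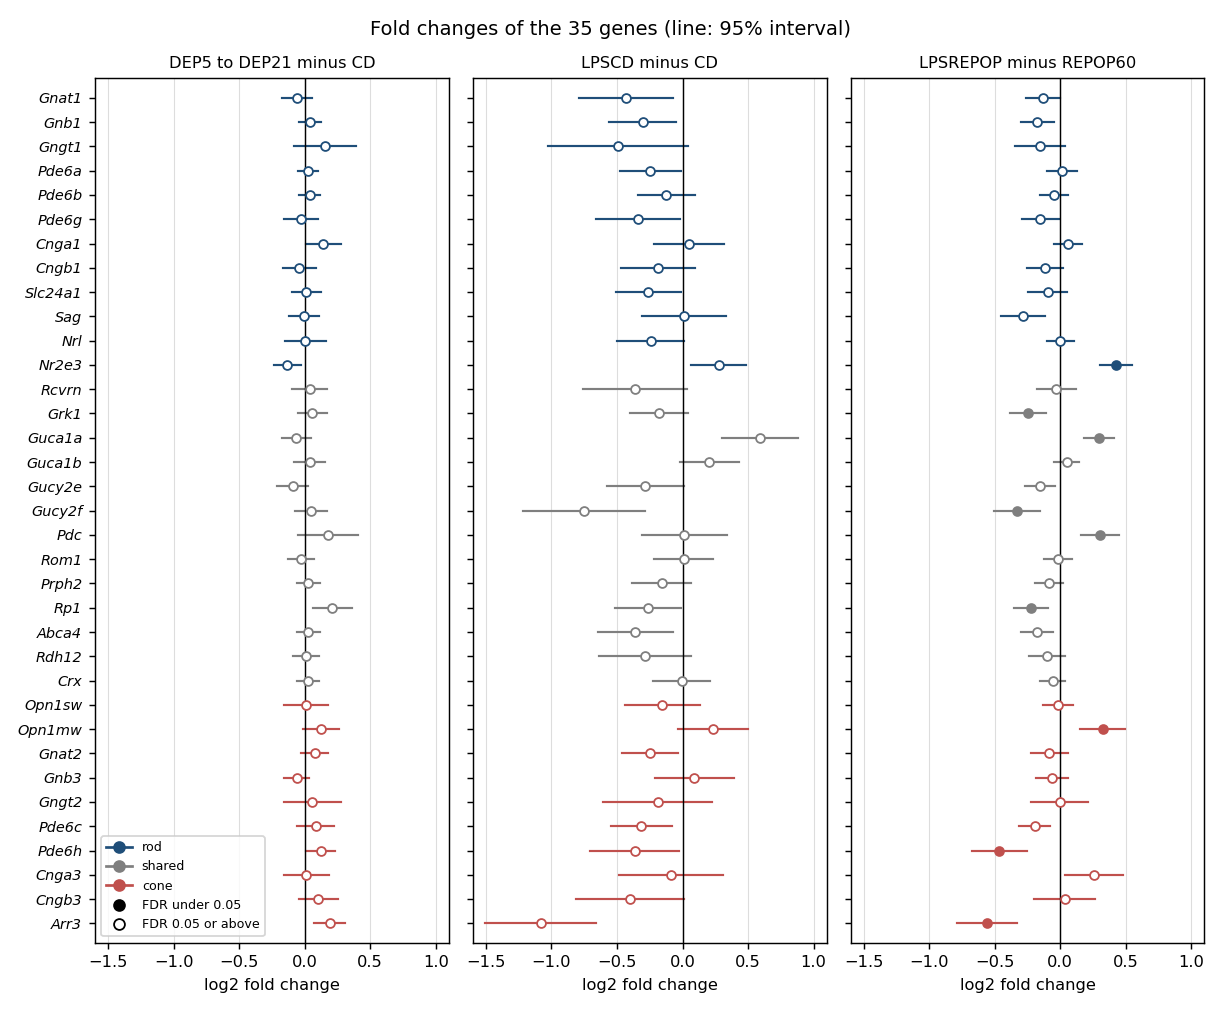
Log2 fold changes of the 35 members in 3 comparisons, with lines for the 95% interval, filled points for FDR under 0.05 and colour for the class. The depletion panel stays between -0.13 and 0.21, and the LPSCD panel reaches -1.08 for Arr3.

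Each depletion group was also compared with the same 5 CD mice, so these comparisons share those animals. DEP5 holds RE mice only, so with the suffix term its fold changes are set against the 3 RE mice of CD. No member passed FDR under 0.05 by edgeR with the suffix term and gene filter, or by DESeq2, on any day. The share of all genes that edgeR called was 0.109% on day 2, 0.0646% on day 5, 0.108% on day 7, 0.096% on day 10, 0.067% on day 14 and 0.139% on day 21. At an unadjusted p under 0.05, the members numbered 5 on day 2 (all genes 4.47%), 2 on day 5 (4.14%), 9 on day 7 (8.2%), 6 on day 10 (6.38%), 6 on day 14 (4.74%) and 2 on day 21 (4.14%). With the replicate number as a block in place of the suffix, Pdc, Rp1 and Arr3 were higher in DEP7, Pdc, Rp1 and Gngt1 in DEP10, and Pdc, Rp1 and Cnga1 in DEP14, which makes 3 members in each. Without CD replicate 2M, Pdc alone was called in DEP7. Without a gene filter edgeR called 3 members in DEP7, 3 in DEP10 and 2 in DEP14. The shares of all genes given above belong to the main fit, and those of these other fits are not given here. The counts from the other fits therefore cannot be set beside a share of all genes.

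During repopulation 0 members were called by edgeR with the suffix term and gene filter, or by DESeq2, before day 21 or at 2 months. The share of all genes that edgeR called was 0.0629% on day 3 of the return, 0.0756% on day 5, 0.089% on day 7, 0.365% on day 10, 0.0125% on day 14 and 0% at 2 months. At an unadjusted p under 0.05, the members numbered 2 on day 3 (all genes 5.19%), 9 on day 5 (6.73%), 2 on day 7 (5.72%), 13 on day 10 (12.2%), 1 on day 14 (3.42%) and 2 at 2 months (3.22%). In REPOP60 the log2 fold changes of the members lay between -0.17 and 0.10. All 4 REPOP60 mice carry re, so with the suffix term these fold changes are set against the 2 re mice of CD. The block called 1 member in REPOP10, Pdc, which was higher. In REPOP10, 1 member was called without CD replicate 1, 2 without CD replicate 2M and 6 without REPOP10 replicate 1. The share of all genes called is not given for these fits or for the block. Without a gene filter edgeR called 1 member in REPOP3, 5 in REPOP5 (0.5% of all genes) and 7 in REPOP10 (2.14%), and RE mice alone gave 2 in REPOP10.

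In REPOP21, 3 members passed FDR under 0.05, 2 higher and 1 lower, where 1.9% of 23739 genes did (0.573% higher and 1.33% lower). Gngt1 was at 347, 803, 1060.3, 753 and 292 CPM in CD (replicates 1, 2, 3, 4 and 2M, of which 1 and 2M are re) and at 371, 1163, 1134 and 1329 CPM in REPOP21. The RE mice of REPOP21 were all above those of CD, with a log2 fold change of 0.38 ± 0.08 (SE, FDR 0.018, edgeR). Nrl, the transcription factor that commits a photoreceptor to the rod fate, was at 1171, 1160.0, 931, 1068 and 1218 CPM in CD and at 1063, 909.8, 855 and 778 CPM in REPOP21. Its log2 fold change was -0.28 ± 0.06 (SE, FDR 0.021, edgeR), and all 3 RE mice of REPOP21 were below those of CD. Rp1 was higher, at 0.28 ± 0.07 (log2, SE, FDR 0.033, edgeR).

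These 3 calls rested on particular mice. Leaving out CD replicate 2, 3 or 4, or REPOP21 replicate 2, 3 or 4, left 0 members called. Without REPOP21 replicate 1, the library with the lowest total, 9 were called, and the block called 6. The share of all genes called in these fits is not given here. In the main fit, 16.8% of all genes had an unadjusted p under 0.05 (edgeR). No member was called without the suffix term, or when all 16 groups shared a fit.

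Over the 14 groups without LPS (58 mice), a test for any difference among groups called Arr3 alone of the 35 (FDR 0.0099, edgeR), where 0.327% of 27869 genes passed, and 12 members had an unadjusted p under 0.05 beside 6.56% of all genes. Arr3 in RE mice was lowest in REPOP21, at 185 ± 3.88 CPM, and highest in DEP21, at 247 ± 10.2 CPM (SD, n = 3). The call was lost without the suffix term and in RE mice alone, where 0 members passed. Over the 13 groups with RE mice, the highest group mean was 1.23 times the lowest for the median member and 1.245 times for the median of the 12346 genes with a mean of 5 CPM or more. Pde6b, a catalytic phosphodiesterase subunit, varied least at 1.097 times, and Gngt1 most at 1.57 times. The median was 1.22 times for rod, 1.18 for shared and 1.28 for cone genes.

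**Figure D3:**
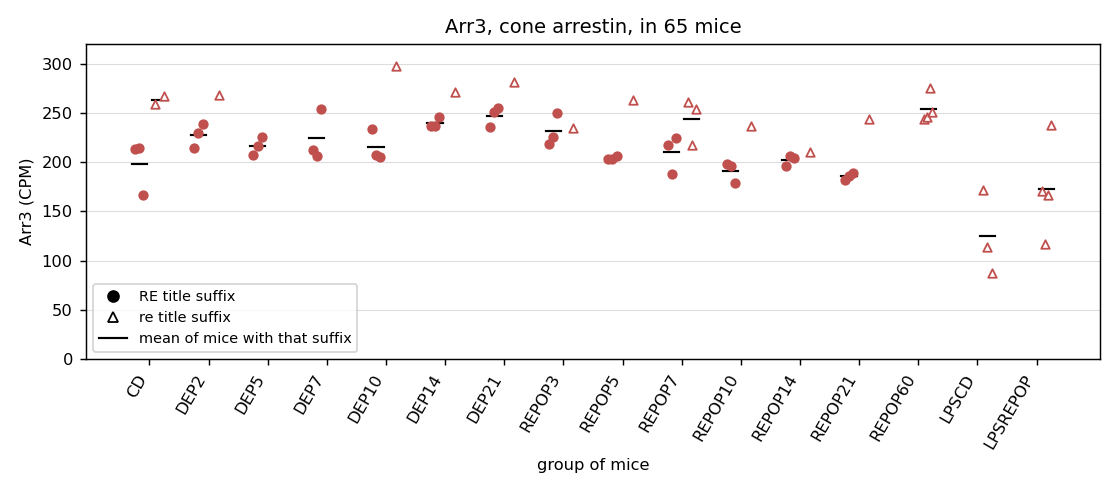
Arr3 in CPM in the 65 mice by group, with filled circles for RE mice, open triangles for re mice and bars for the mean of mice with the same suffix. The axis ends below the highest re mouse, at 327 CPM, which is therefore not drawn. The LPSCD mice sit between 87.5 and 172 CPM, below all re mice of CD and REPOP60, which start at 244 CPM.

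Under LPS some members were lower and a few higher, and mice of the same group differed widely. All mice of LPSCD, LPSREPOP and REPOP60 carry the re suffix, as do 2 CD mice. The microglial marker sum was 128 to 146 CPM in LPSCD and 75.5 to 119 CPM in LPSREPOP, against 56.8 to 66.6 CPM in REPOP60, and its part in the results below was not tested. Gfap, which reactive glia raise, was at 11.7, 16.4 and 79.6 CPM in LPSCD, at 6.95, 36.0, 26.3 and 11.5 CPM in LPSREPOP and at 7.47 to 11.4 CPM in REPOP60. A higher Gfap was not limited to LPS mice. Its mean was 11.3 CPM in CD and from 16.5 (DEP21) to 22.6 CPM (REPOP10) over the depletion and REPOP3 to REPOP21 groups. Of the 8 genes of the Mueller glia list, 3 were called in LPSREPOP compared with REPOP60, Vim higher at 0.74, Gfap higher at 1.08 and Rlbp1, a retinoid carrier, lower at -0.57 (log2; FDR 1.5e-07, 0.041 and 0.0011, edgeR). Pigment epithelium markers overlapped between the groups, at 9.81 to 29.7 CPM in LPSCD, 12.03 to 32.6 CPM in LPSREPOP and 10.2 to 34.1 CPM in REPOP60.

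LPSREPOP was compared with REPOP60, which has the same suffix and which the study also describes as repopulated. The time that LPSREPOP mice had for repopulation is not given in the sources used here, so LPS and a difference in schedule cannot be told apart in this comparison. Of the 35 members, 9 passed FDR under 0.05, 4 higher and 5 lower, where 2.92% of 24927 genes did (1.87% higher and 1.05% lower). Of all genes 0.437%, and no member, passed the study's rule of FDR under 0.01 with an absolute log2 fold change above 1. The median log2 fold change was -0.11 for rod, -0.08 for shared and -0.04 for cone genes, against -0.01 over all genes.

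Nr2e3, whose promoter is printed above, was at 656, 623, 575 and 678 CPM in LPSREPOP and at 522, 439, 455 and 464 CPM in REPOP60. The groups did not overlap, and the log2 fold change was 0.43 ± 0.06 (SE, FDR 5.8e-05, edgeR). It was between 0.37 and 0.48 in all 15 alternative fits and passed in each. In LPSCD, Nr2e3 was at 631, 691 and 606 CPM, above the re mice of CD at 502 and 557 CPM. Nr2e3 overlaps Gm15507 on the same strand, which had a median of 25 counts against 4535 for Nr2e3.

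Guca1a, which encodes an activator of guanylate cyclase at low calcium, was at 674, 733, 619 and 622 CPM in LPSREPOP and at 523, 521, 558 and 548 CPM in REPOP60. Again no mice overlapped, with a log2 fold change of 0.30 ± 0.06 (SE, FDR 0.0017, edgeR). LPSCD mice were at 629, 875 and 807 CPM, and the 5 CD mice at 459.7 to 566 CPM. With all 16 groups in one fit Guca1a did not pass (FDR 0.095, edgeR). Its close relative Guca1b was at 999.5, 974, 1048 and 1040.1 CPM in LPSREPOP and did not pass, at 0.05.

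Arr3, which binds activated cone pigment and ends its signal, was at 170.5, 117, 167 and 238 CPM in LPSREPOP and at 244, 246, 276 and 251 CPM in REPOP60. Replicate 4 came close to the unchallenged mice and the other LPSREPOP mice lay well below. The log2 fold change of Arr3 was -0.56 ± 0.11 (SE, FDR 0.0036, edgeR). In LPSCD, Arr3 was at 172, 114 and 87.5 CPM.

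Pde6h, the inhibitory subunit of the cone phosphodiesterase, was at 69.5, 57.6, 83.6 and 105 CPM in LPSREPOP and at 107, 112, 111 and 104 CPM in REPOP60. Only replicate 4 reached the unchallenged range, and the log2 fold change was -0.46 ± 0.10 (SE, FDR 0.0098, edgeR). Pde6h shares exon sequence with Arhgdib on the opposite strand, and the strand setting of the counting is not given in the sources used here. Arhgdib had a median of 32 counts, against 916 for Pde6h. The same holds for Opn1sw with Calu and for Gngt2 with Abi3, whose medians were 1163 and 123 counts beside 2229 and 421 for the members.

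Gucy2f, a photoreceptor guanylate cyclase, was lower at -0.33 ± 0.09 (log2, SE, FDR 0.033, edgeR), with 259, 165, 196 and 232 CPM in LPSREPOP and 290.2, 266, 248 and 263 CPM in REPOP60. Grk1, the kinase that acts on activated pigment, and Rp1 were lower at -0.24 and -0.22 (FDR 0.043 and 0.049, edgeR). Opn1mw, the medium wavelength cone opsin, was higher at 0.32 ± 0.08 (log2, SE, FDR 0.029, edgeR), with 127, 146, 110.2 and 96.3 CPM in LPSREPOP, and its replicate 4 lay within the REPOP60 range of 90.5 to 99.0 CPM. Pdc was higher at 0.30 ± 0.07 (log2, SE, FDR 0.014, edgeR). The short wavelength opsin Opn1sw did not pass, at -0.02 with an interval from -0.13 to 0.10.

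Cone genes differed among themselves, since Arr3 and Pde6h were lower, Opn1mw was higher, and 7 of 10 did not pass. Among rod genes Nr2e3 alone passed. Sag was at -0.29 (FDR 0.055, edgeR) and Gnat1 at -0.13 (FDR 0.35, edgeR), with 13429, 10092, 11825 and 13184 CPM in LPSREPOP. Leaving out 1 mouse changed the number of calls. Without any 1 of the 4 REPOP60 mice, or without LPSREPOP replicate 3, 2 or 3 members were called, and 6, 5 and 12 were called without LPSREPOP replicate 1, 2 and 4. Nr2e3 and Guca1a were among those called in each of these fits. The share of all genes called in these fits is not given here.

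**Figure D4:**
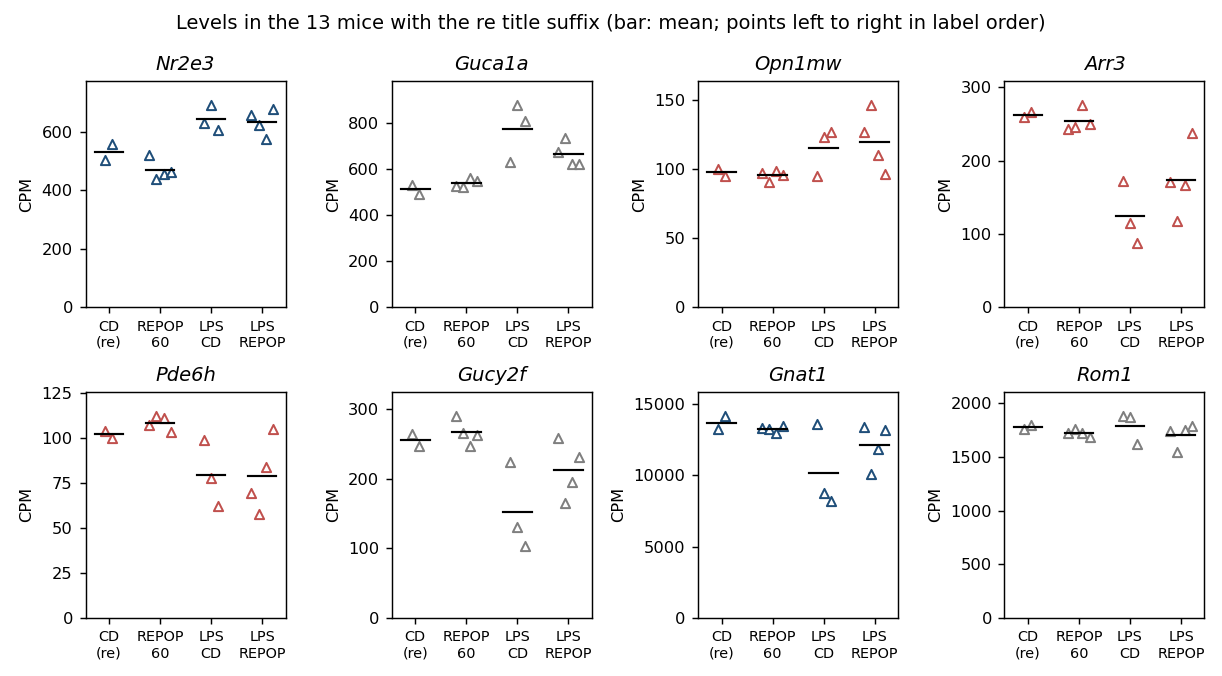
CPM of 8 members in the 13 mice with the re suffix, as open triangles by group in label order, with bars for group means and axes from 0. Nr2e3 and Guca1a lie higher in both LPS groups, Arr3 lies lower, and Gnat1 falls to 8749 and 8219 CPM in 2 of the 3 LPSCD mice.

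In LPSCD compared with CD, no member passed FDR under 0.05 by edgeR (lowest FDR 0.097), where 0.0466% of 23606 genes did. DESeq2 called 1 member, Guca1a. By edgeR, 0% of all genes had FDR under 0.01 with an absolute log2 fold change above 1. The study lists genes passing the same thresholds under LPS on the control diet. At these thresholds the edgeR fit recovered no published LPS gene. Its lack of member calls therefore does not show that members were unchanged. All 3 LPSCD mice carry re, so with the suffix term each fold change is set against the 2 re mice of CD. Other edgeR fits called more, with 5 members without the suffix term (2.43% of all genes), 8 without a gene filter (2.68%) and 11 with all 16 groups in one fit (6.43%). The unadjusted p was under 0.05 for 14 of 35, 12 of them lower, beside 10.5% of all genes (4.91% lower). Median log2 fold changes were -0.24 for rod, -0.18 for shared and -0.22 for cone genes, against 0.01 over all genes. Markers of other retinal neurons had medians of -0.23 for the 6 ganglion cell genes and -0.18 for the 7 amacrine and horizontal cell genes. The median was -0.03 for the 7 bipolar cell genes and 0.01 for the 8 Mueller glia genes. A median of the size seen for photoreceptor genes was thus shared by some of these lists and not by others. Only 17 of the 35 intervals lay within 0.5 of no change, so for the others a difference of that size was within the interval. Arr3 had the lowest FDR, with a log2 fold change of -1.08 and an interval from -1.51 to -0.66. Guca1a was at 0.59 with an interval from 0.30 to 0.88, and Gucy2f at -0.75 with an interval from -1.22 to -0.29.

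LPSCD replicate 1 stood apart from the other 2 mice of its group. Gnat1 was at 13624 CPM in replicate 1 and at 8749 and 8219 CPM in replicates 2 and 3, while the 5 CD mice lay between 12505 and 14177 CPM. Gngt1 was at 325 CPM in replicate 1 and at 225 and 135 CPM in the others, against 347 and 292 CPM in the re mice of CD. Sag was at 2876, 3713 and 2304 CPM, so replicate 2 was high for rod arrestin and low for Gnat1. Without LPSCD replicate 1, 15 members passed beside 5.26% of all genes, 1 higher and 14 lower, and Arr3 and Gucy2f also met the study's rule. This count rests on 2 LPSCD mice. The number in the title of LPSCD replicate 1 begins with 1, and those of replicates 2 and 3 with 0. In LPSREPOP, the numbers of replicates 2 and 3 begin with 1 and those of replicates 1 and 4 with 0. Gnat1 was lower in the mice with 0 in LPSCD and in the mice with 1 in LPSREPOP. The meaning of this digit is not given in the sources used here, and its part was not tested.

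Against the unchallenged re mice, the spread between mice was wider under LPS for 34 of the 35 members, Nr2e3 being the exception. The median SD of log2(CPM + 1) within groups was 0.21 in the LPS mice and 0.05 in the unchallenged re mice of CD and REPOP60, and the median ratio over members was 4.21. Against the time course groups, where the median SD was 0.14, the difference was smaller, with 27 members wider and 8 narrower under LPS and a median ratio of 1.35. Over the 12346 genes with a mean of 5 CPM or more, 76.1% were wider than in the unchallenged re mice and the median ratio was 1.504. LPSCD replicate 3 held the lowest value of the 13 re mice for 20 of 35 members (57.1%), beside 20.9% of those genes, and LPSREPOP replicate 2 for 6 members (17.1%), beside 10.4%.

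The rod to cone arrestin ratio was highest in LPSCD among the mice with the re suffix in these 4 groups. The FPKM ratio of Sag to Arr3 was 14.2, 25.3 and 22.1 in LPSCD and 13.4, 13.9, 12.8 and 10.3 in LPSREPOP. It was 10.1 to 11.2 in REPOP60 and 9.09 and 8.94 in the re mice of CD. All LPSCD mice were above every unchallenged re mouse of these groups, and LPSREPOP replicate 4 lay within the REPOP60 range. The Pde6a to Pde6c ratio was 20.4 ± 1.23 in LPSREPOP and 17.7 ± 0.78 in REPOP60 (SD, n = 4), whereas LPSCD at 17.5 ± 1.69 (SD, n = 3) was near CD. These ratios are descriptions with no test.

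LPSREPOP and LPSCD were then compared directly. No member passed FDR under 0.05 by edgeR (lowest FDR 0.62) or DESeq2, where 0% of 24500 genes did. At an unadjusted p under 0.05 there were 4 of 35, all higher in LPSREPOP, beside 8.05% of all genes (4% higher). Gucy2f was at 0.48 with an interval from 0.02 to 0.94, Cngb3 at 0.41, Pde6a at 0.29 and Pdc at 0.27 (log2). Without LPSCD replicate 1 there were 7 calls beside 3.2% of all genes, 6 of them higher in LPSREPOP.

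Whether the LPS difference depended on the background, control diet or repopulated as the study names it, was tested as an interaction in the 13 re mice. No member and none of 27025 genes (0%) passed (lowest member FDR 0.84, edgeR), and 5 members had an unadjusted p under 0.05, beside 5.63% of all genes. The interaction of Arr3 was 0.52 with an interval from 0.06 to 0.99, so the difference between backgrounds is poorly bounded. In the same 13 mice, with background as a term, both LPS groups together differed from the unchallenged mice in 11 of 35 members, 3 higher and 8 lower, where 3.99% of all genes passed (2.49% higher and 1.5% lower). That fit was chosen after the data were seen. The higher members were Nr2e3 at 0.37, Guca1a at 0.40 and Opn1mw at 0.29, and Arr3 was the lowest at -0.76 ± 0.13 (log2, SE).

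The classes of genes can be followed as scores, the mean of log2(CPM + 1) over the genes of a class. In RE mice, the rod score was 10.957 in CD and 10.964 in the 15 mice of DEP5 to DEP21, a difference of 0.01. The shared and cone scores differed by 0.03 and 0.07. The LPSCD mean was 0.21 lower than that of the re mice of CD for rod, 0.15 lower for shared and 0.26 lower for cone genes. Only for cone genes did the mice not overlap, at 6.14 to 6.48 in LPSCD and 6.52 to 6.55 in the re mice of CD. LPSREPOP was 0.06 lower for rod, 0.06 for shared and 0.09 for cone genes than REPOP60, and the mice overlapped in each class.

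**Figure D5:**
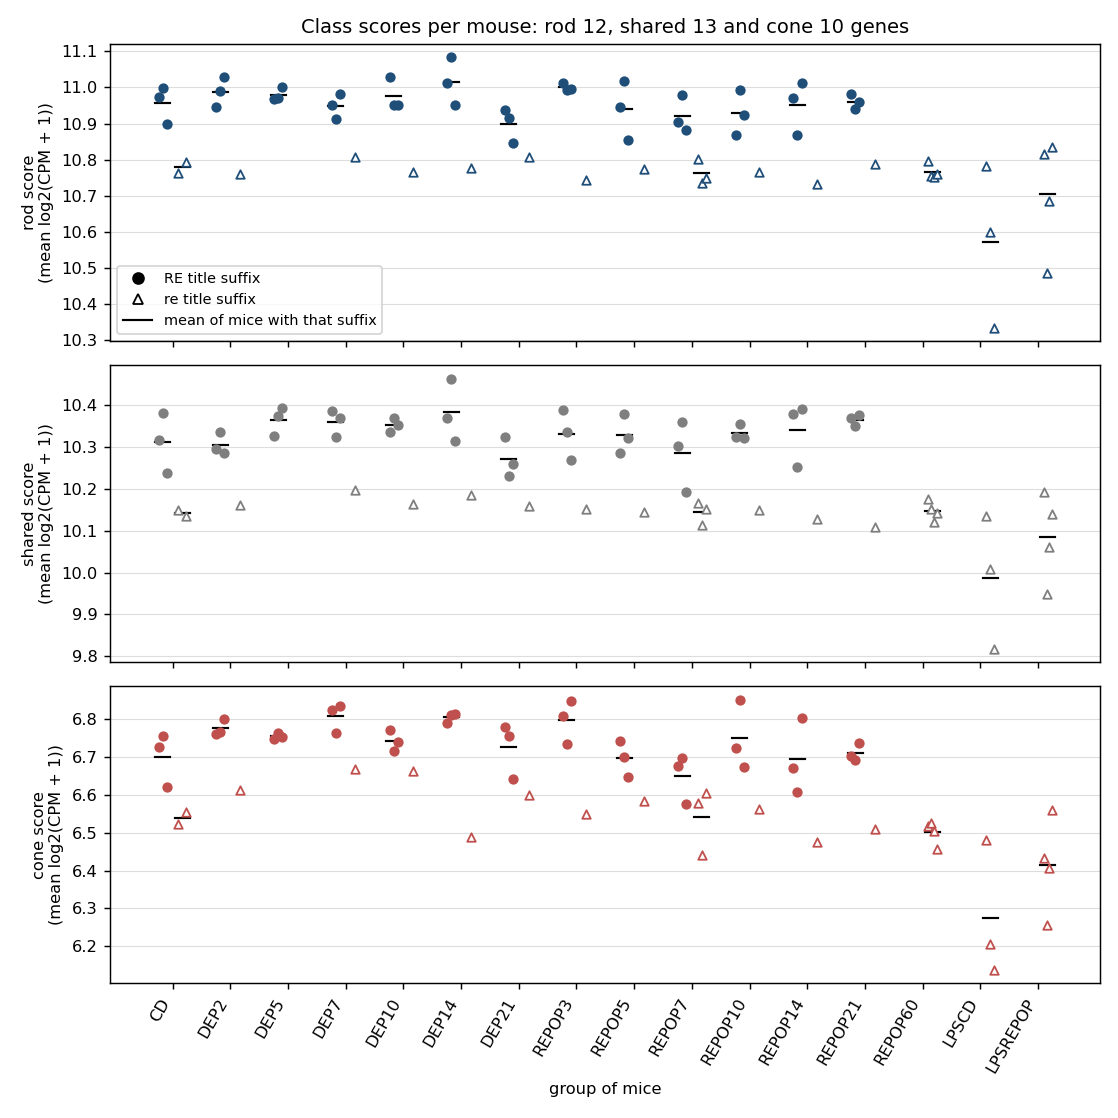
Rod, shared and cone scores, each the mean log2(CPM + 1) over its genes, for the 65 mice by group, with filled circles for RE mice, open triangles for re mice and bars for means by suffix. The rod score of LPSCD reaches down to 10.3, and the cone scores of LPSCD end at 6.48.

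Of 44 other photoreceptor genes, which build the outer segment, cilium and synapse or set its gene program, 0 passed FDR under 0.05 in pooled depletion by edgeR (5 at an unadjusted p under 0.05, beside 6.47% of all genes), and their median log2 fold change was 0.03. In LPSREPOP compared with REPOP60, 2 were higher and 7 lower, beside 2.92% of all genes. Among the lower genes were Nxnl1, a rod-derived cone viability factor, at -0.56, Samd7 at -0.53, Rgs9bp, the anchor of the transducin-deactivating complex, at -0.35, and Rpgrip1, a ciliary protein, at -0.32 (log2). Gnb5, another part of the deactivating complex, was higher at 0.29. In REPOP21, 2 were higher and 3 lower, beside 1.9% of all genes, with Rpgr and Cep290, both of the cilium, at 0.39 and 0.38 and Slc17a7, Unc119 and Fscn2 between -0.29 and -0.33.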

How the data were processed

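Each of the 65 mice was a replicate of the group its label gives, 16 groups in all. The deposited counts are whole reads per gene that the authors obtained with HTSeq after HISAT2 alignment to mm10, without normalization. The authors ran StringTie for the deposited FPKM table, in which values are scaled by exon length and depth. Of that table, 1 row of that table names no gene and was dropped. Library preparation used poly-A selection per the labels, 50 bp single-end. Strand settings are not given in the sources used here.

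The 35 members and all marker lists were chosen with earlier results of these data known. Symbols were matched to identifiers with GENCODE M21, and each list gene matched 1 identifier. Counts were fitted with edgeR 4.0.16 (R 4.3.3) by the quasi-likelihood F test with TMM, using the mice of the groups compared, the title suffix as a term where both suffixes occur, and keeping a gene when a fraction 0.5 or more of the mice in either group had 1 count or more. Standard errors are the log2 fold change divided by the square root of F, and intervals cover 95%. The FDR is Benjamini-Hochberg over all genes tested. The study's methods add a batch term without naming the batches, and the suffix is not known to be that batch. Levels are CPM with TMM library sizes. Scores use log2(CPM + 1), and FPKM served only for levels across genes, ratios and an alternative of the scores.

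Named genes were all members and, of the other lists, at most the 5 of largest absolute log2 fold change among those at FDR under 0.05 in a comparison, plus genes a result turns on. Gnb5 was named in addition after its values were seen. For 1 gene of the other photoreceptor list, the values are not reported here. Alternatives were no suffix term, each suffix alone, RLE, filterByExpr, no filter, DESeq2 1.42.0, all 16 groups in one fit, the replicate block and leaving out each mouse. The total count per mouse was 5106429 to 8760443, which limits precision for the lowest cone genes. The fits were tested on simulated data.

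Replicate numbers mark different mice. Over 12346 genes, same-numbered mice of a group and CD correlated above 0.1 in every pair for 8 of 16 comparisons (DEP2, DEP7, DEP10, DEP14, REPOP3, REPOP5, REPOP10 and REPOP21), in which number 1 is also the re mouse, and in none once the suffix was removed. The blocked value is given beside those results where it changes a call. Promoter sequences are from RefSeq. Amino acid sequences were not used here, and no sample was left out.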

Additional observations from a re-analysis of the deposited data

Results flagged for a closer look

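Of 60 sets of values tested for an outlier, 5 had a mouse far from the others, by Dixon's 95% criterion, and chance alone flags about 1 in 20 sets. All 5 were class scores within a group. Each was the lowest of 4 mice, and each was replicate 1, the group's single mouse with the re suffix. The rod score was 10.74 in this mouse of REPOP3. The shared score was 10.16 in DEP10, 10.15 in REPOP10 and 10.11 in REPOP21. The cone score was 6.49 in DEP14. The part of the suffix in these values was not tested separately.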

How the results depend on the processing

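Counts of members at FDR under 0.05 are given here where they differed by more than 1.5 times from the reported count, and the cause was not tested. Shares of all genes are not given in this section, so the counts alone do not set the members apart from other genes. Without a gene filter they were 3 in DEP7, 3 in DEP10, 2 in DEP14, 1 in REPOP3, 5 in REPOP5, 7 in REPOP10, 8 in REPOP21 and 8 in LPSCD compared with CD, where 1 member also met the study's rule. With filterByExpr they were 1 in REPOP21 and 5 in LPSREPOP compared with REPOP60. With all 16 groups in one fit they were 0 in REPOP21, 11 in LPSCD compared with CD (1 by the study's rule), 3 in LPSREPOP compared with LPSCD and 3 in LPSREPOP compared with REPOP60. Without the suffix term they were 0 in REPOP21, 5 in LPSCD compared with CD and 0 in the time course. In RE mice alone they were 2 in REPOP10 and 0 in the time course, and in re mice alone 1, Rp1, in pooled depletion. The fit of re mice alone gave 0 in REPOP21, but it holds 1 REPOP21 and 2 CD mice and says nothing of stability. DESeq2 called 1 in LPSCD compared with CD.

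With the replicate block the counts were 3 in DEP7, 3 in DEP10, 3 in DEP14, 1 in REPOP10, 6 in REPOP21 and 16 in LPSREPOP compared with REPOP60, and it changed no other count by over 1.5 times. In the last comparison the same-numbered mice correlated between -0.0048 and 0.063, so they share only a number.

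Leaving out each mouse gave 0 to 1 in DEP7, 0 to 6 in REPOP10, 0 to 9 in REPOP21, 0 to 15 in LPSCD compared with CD (0 to 2 by the study's rule), 0 to 7 in LPSREPOP compared with LPSCD and 2 to 12 in LPSREPOP compared with REPOP60. Where this leaves an arm with few mice, their spread is taken from the other mice of the fit. The fit of both LPS groups together was chosen after seeing the data. No called member changed direction in any alternative run. Depth limits Cnga3 most, at 88 to 175 counts per mouse.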
